A study of Mus musculus with 8 samples.

Results

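The calcineurin and NFAT pathway was followed in single endocardium cells through 9 genes, namely the NFAT transcription factor genes *Nfatc1*, *Nfatc2*, *Nfatc3* and *Nfatc4*, the calcineurin subunit genes *Ppp3ca*, *Ppp3cb* and *Ppp3r1*, the inhibitor gene *Rcan1* and the natriuretic peptide receptor gene *Npr3*. Members were taken as every probe that the array files name for these genes, which gave 13 of 55295 probes, for 9 of 35560 named genes or regions. Each of 8 1-colour Agilent arrays was hybridized with the amplified cDNA of 1 cell from the heart tube of mouse embryos at E8.5 with 9 somites. Of these cells, 4 were WT (*Mesp1*+/+, *Sox17*flox/flox) and 4 were *Sox17* KO (*Mesp1*Cre/+, *Sox17*flox/flox), so that both genotypes carried the floxed *Sox17* alleles and differed in the Cre allele. *Mesp1* drives Cre in the early mesoderm, so that deletion was not limited to the endocardium. Cell identity had been assigned by PCR of marker genes, and the embryo that each cell came from is not named. A genotype was therefore treated as 1 sample, and no test was made. Differences are given between mean log2 signals (KO minus WT) beside the pooled within-genotype SD of the cells (SD between cells), which may be technical as well as biological. The slide held WT cells in its first column of arrays and KO cells in its other column, and an effect of place on the slide cannot be told apart from genotype.

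Calcineurin is a phosphatase made of a catalytic A subunit and a regulatory B subunit, and it is switched on by calcium bound to calmodulin. It removes phosphates from NFATc proteins, which then enter the nucleus, where they bind DNA at GGAAA core sequences, often together with AP-1 or MEF2 factors. RCAN1 inhibits calcineurin, and an internal promoter of its gene is itself a target of NFAT. In the embryonic heart *Nfatc1* is known as a gene of the endocardium that is needed for valve formation, and *Npr3*, which encodes the clearance receptor for natriuretic peptides, is used as a marker of the same layer.

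Signals were scaled between arrays and raised to a floor of 50 where they were lower before the log2 step, and a probe counted as detected in a cell when the scanner software marked its signal as well above background. Between 11370 and 18175 probes were detected per cell, the lowest number in WT cell 1, whose array alone was marked for evaluation by the software. Of 10 endocardial and endothelial marker genes, 7 to 10 were detected per WT cell and 6 to 9 per KO cell. These 10 include the members *Nfatc1* and *Npr3*, so that the count is not independent of the members. Among all markers, *Emcn* (4.07, SD 2.58, detected in 1 WT and 4 KO cells) and the cardiomyocyte gene *Actc1* (2.67, SD 2.79) were 5-fold higher in KO cells. No other marker was 5-fold apart. With single cells left out, the difference of *Actc1* ran from 1.46 (without WT cell 1), under 5-fold, to 3.84 (without KO cell 2). Its highest signal was in KO cell 1 (41042), so that the call rests on few cells. Of 9 cardiomyocyte marker genes, 3 to 7 were detected per cell in each genotype, with summed signals of 318 to 34056 in WT and 1001 to 48719 in KO cells. The highest of these sums was in KO cell 1, which also had the lowest endothelial sum of all cells, 7045. WT cell 2 had the next highest cardiomyocyte sum, 34056, and the lowest endothelial sum of the WT cells, 10037. Its smooth muscle sum, 14376, was the highest of all cells. KO cell 4 followed in both, with a cardiomyocyte sum of 28948 (7 of 9 markers detected) and a smooth muscle sum of 7724. The endothelial sum of KO cell 4 was 13906. Smooth muscle markers were detected for 2 of 3 genes in every cell. Blood and endoderm markers were detected for at most 1 of 5 genes in any cell, and the 3 epicardium markers in none. The probes for *Sox17*, the deleted gene, were detected in no cell of either genotype, so that they did not check the labels.

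Of the 13 member probes 9 were detected in at least 1 cell, and they belonged to 8 of the 9 genes. Taking the brightest probe of each gene, WT cells 1 to 4 had 3, 7, 6 and 8 member genes detected, and KO cells 1 to 4 had 2, 5, 5 and 5. The ranges overlapped, with 24 of 36 gene and cell pairs (66.7%) detected in WT and 17 of 36 (47.2%) in KO cells. The medians of all probes detected per cell were 15361 in WT and 15232.5 in KO cells. With the software's other flag, for a signal that is positive and significant, the numbers were 4, 7, 7 and 9 in WT and 7, 6, 6 and 5 in KO cells, or 27 and 24 of 36, so that most of the gap between genotypes and the low place of KO cell 1 depended on the detection call.

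**Figure D1:**
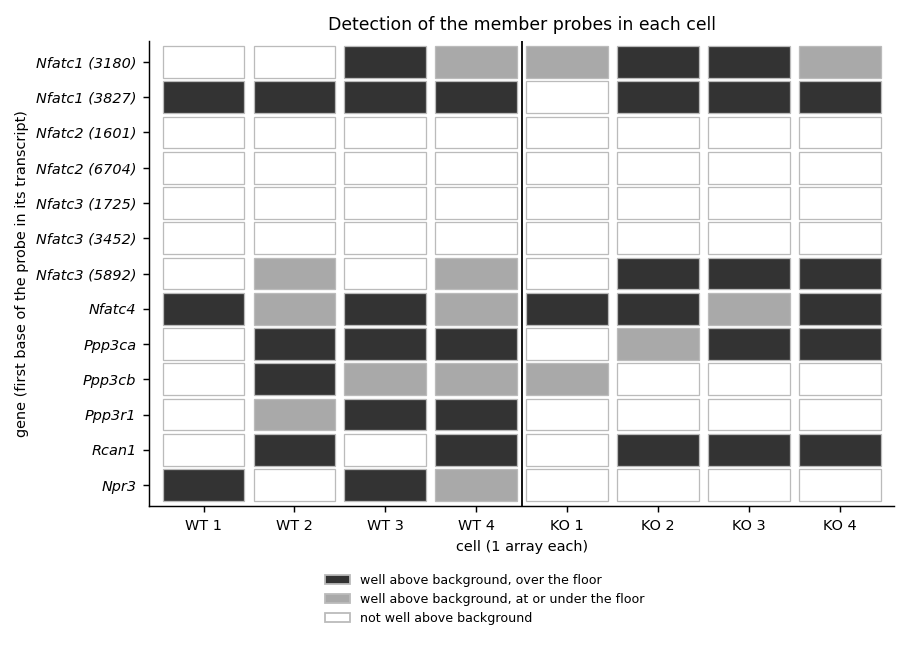
Detection of the 13 member probes (rows, with the first base of the probe in its transcript where a gene has several) in the 4 WT and 4 KO cells (columns). Dark squares are probes well above background with a scaled signal over the floor of 50, grey squares are detected at or under the floor, and white squares are not detected. The rows of *Ppp3r1* and *Npr3* are white in all 4 KO cells, and those of *Nfatc2* are white in all 8 cells.

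Among the NFAT factors, *Nfatc1* was detected in most cells of both genotypes, but its probes gave opposite differences. The brighter probe starts at base 3827 of its transcript and had scaled signals of 1239, 348, 1141 and 1958 in WT cells 1 to 4, and of 3.42, 693, 4317 and 81.7 in KO cells 1 to 4. It was detected in all 4 WT and in 3 of 4 KO cells, and the KO cells held both the highest and the lowest signal. The difference of mean log2 signal was -1.58, within the SD between cells of 2.23. Leaving out KO cell 1, in which the probe was not detected, brought it to -0.66, and leaving out KO cell 3 brought it to -2.81.

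The other *Nfatc1* probe lies 41775 bases away on mm9, starts at base 3180 of another transcript, and shares none of the accessions that the files list for the brighter probe. It had signals of 4.65, 1.28, 612 and 6.95 in WT cells and of 21.4, 3027, 1191 and 15.4 in KO cells, and was detected in 2 WT and in 4 KO cells. Only WT cell 3, KO cell 2 and KO cell 3 were above the floor. The difference was 1.72 with an SD between cells of 2.52, and it was 0.62 without KO cell 2 and 2.62 without WT cell 3. The probes were detected together in 5 cells, and their log2 signals had a Pearson r of 0.47 over the 8 cells. Both probes were above the floor in WT cell 3, KO cell 2 and KO cell 3, while WT cells 1, 2 and 4 were above it for the probe at base 3827 alone. The mean of both probes differed by 0.07, so that these data give no common direction for *Nfatc1*.

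*Nfatc2* was not detected in any cell by either of its probes, whose signals were between 1.10 and 5.95. *Nfatc3* has 3 probes, and those at bases 1725 and 3452 were not detected in any cell, with signals between 1.20 and 7.85. The probes nearest to the start of the *Nfatc2* and *Nfatc3* transcripts are shown because the absence of signal for these genes rests in part on them, and cDNA was primed at the poly(A) tail. The sequences are from the array files, 5′ to 3′, for mm9 chr2:168361757-168361816 on the minus strand (base 1601 of the *Nfatc2* transcript) and chr8:108615965-108616024 on the plus strand (base 1725 of the *Nfatc3* transcript).
Nfatc2: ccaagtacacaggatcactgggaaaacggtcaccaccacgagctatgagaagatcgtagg
Nfatc3: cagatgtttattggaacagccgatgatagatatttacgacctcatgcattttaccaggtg
The part that probe position played in detection was not tested.

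The *Nfatc3* probe nearest to the transcript end (base 5892, chr8:108654316-108654375) was the one with signal. It read 3.82, 15.0, 3.11 and 6.31 in WT cells, and 7.6, 658, 372 and 263 in KO cells. KO cells 2, 3 and 4 lay above every WT cell and above the floor, whereas KO cell 1 lay among the WT cells, so that the genotypes overlapped. It was detected in 2 WT cells, under the floor in each, and in 3 KO cells. The difference was 2.25 (4.76-fold) with an SD between cells of 1.13, in which the WT cells have no part because all 4 were raised to the floor. With a floor of 10 the difference was 3.85 and with a floor of 200 it was 0.75.

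*Nfatc4* was the only member with a probe detected in all 8 cells (chr14:56452542-56452601, base 3028). Its signals were low throughout, with 102, 36.1, 72.0 and 40.5 in WT cells and 152, 94.2, 47.2 and 108 in KO cells. The difference of 0.52 was smaller than the SD between cells of 0.59. *Nfat5*, the calcium-independent relative of these factors, was not detected in any cell.

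All 3 calcineurin subunit genes were detected together in WT cells 2, 3 and 4 and in none of the KO cells, each of which had 1 subunit gene detected. The absence of *Ppp3r1* from the KO cells is enough to set this count. WT cell 1 had none. The count in WT cells includes signals detected under the floor, namely *Ppp3r1* in WT cell 2 (28.4) and *Ppp3cb* in WT cells 3 and 4 (16.3 and 13.6). No cell of either genotype had all 3 subunit genes above the floor. The catalytic subunit gene *Ppp3ca* (base 2836, chr3:136598682-136598741) had signals of 4.47, 2878, 363 and 113 in WT cells and of 3.09, 34.8, 2585 and 13164 in KO cells. It was detected in 3 cells of each genotype, KO cell 4 had the highest signal, and the difference of 0.96 was well within the SD between cells of 3.40. Without KO cell 4 the difference was -0.57, so that this cell decided its direction.

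The second catalytic subunit gene, *Ppp3cb* (base 3092, chr14:21319265-21319324), had signals of 3.60, 421, 16.3 and 13.6 in WT and of 33.8, 4.35, 1.57 and 2.16 in KO cells. It was detected in 3 WT cells and in KO cell 1 only, and WT cell 2 alone was above the floor. The difference was -0.77 with an SD between cells of 1.09, and 0 without WT cell 2.

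The regulatory subunit gene *Ppp3r1* (base 2708, chr11:17100263-17100322) had signals of 3.55, 28.4, 2527 and 176 in WT cells and of 10.8, 3.80, 1.42 and 1.96 in KO cells. It was detected in WT cells 2, 3 and 4 and in no KO cell, whereas the flag for positive and significant signal also marked 1 KO cell. Where a probe was not detected in any cell of a genotype its level there is only an upper bound, here the floor. With WT cells 1 and 2 also raised to the floor, the mean was at least 3.65-fold higher in WT (means of 7.51 and 5.64 on the log2 scale). The SD between cells was 1.89, slightly above the difference of 1.87, and without WT cell 3 the difference (KO minus WT) was -0.60. Detection in at least 3 WT cells and no KO cell was met by 2 of the 9 detected member probes, *Ppp3r1* and *Npr3*, against 0.842% of the 26833 probes detected in at least 1 cell. The reverse, at least 3 KO cells and no WT cell, was met by 0 member probes and by 197 of the 26833. Members were chosen with earlier results of these data known, so that these counts are no test of the pathway. The remaining subunit genes, *Ppp3cc* and *Ppp3r2*, were not detected in any cell.

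*Rcan1* was the only member at least 5-fold apart between genotypes (2.32 on the log2 scale), and it was so only in some settings. Its probe (base 1568, chr16:92392763-92392822) had signals of 3.61, 587, 2.39 and 189 in WT cells and of 3.67, 3799.5, 366 and 3941 in KO cells. KO cells 2 and 4 were above every WT cell, KO cell 3 lay between WT cells 2 and 4, and KO cell 1 was not detected, like WT cells 1 and 3. The difference was 2.49 (5.61-fold) with an SD between cells of 2.46, and it was 3.77 without KO cell 1. It was under 5-fold without KO cell 2 (1.69), KO cell 4 (1.67), WT cell 1 or WT cell 3 (2.03 each), and also with the 75th percentile (2.14), all probes for the percentile (2.09), the floor set before scaling (2.07), normexp background correction (2.13) or a floor of 200 (1.97). *Rcan1* and the *Nfatc3* probe at base 5892 were detected in the same 5 cells, WT cells 2 and 4 and KO cells 2, 3 and 4. Their log2 signals had a Pearson r of 0.78 over the 8 cells. Within each cell both probes share the same amplification and depth. The r of 0.78 was the highest among pairs of members, and the lowest was -0.72, for the brighter *Nfatc1* probe and *Nfatc4*. The *Nfatc3* probe stood at the floor in all 4 WT cells and in KO cell 1.

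The probe cannot separate the transcripts that start at the upstream and the internal promoter of *Rcan1*, since the files list it for transcripts of both starts. The 250 bases before each start were taken from RefSeq (GRCm38.p6) and searched for GGAAA on both strands (TTTCC on the strand shown), with overlapping matches counted. The window before the upstream start (chr16:92466170-92466419, minus strand) held none, and that before the internal start (chr16:92400079-92400328, minus strand), 66091 bases downstream, held 3. It is printed below because it is the promoter that NFAT is known to act on, with the matches in capitals.
Rcan1 internal promoter: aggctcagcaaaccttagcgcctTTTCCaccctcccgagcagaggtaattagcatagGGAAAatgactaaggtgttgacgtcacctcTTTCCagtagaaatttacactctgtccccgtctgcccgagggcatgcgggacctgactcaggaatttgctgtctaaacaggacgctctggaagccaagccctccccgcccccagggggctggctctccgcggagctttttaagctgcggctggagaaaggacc
At least 1 match was found in 55.6% of 32851 promoter windows of this length and at least 3 in 6.39%. Windows were searched for 7 of the members, and *Nfatc1* and *Ppp3ca* were not among them. Of the other member promoters, those of *Nfatc4* and *Ppp3cb* and 1 of 2 for *Nfatc2* also held 3 matches, and those of *Ppp3r1* and *Npr3* held none. A match describes the letters of the window and is not a binding site.

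*Npr3*, the endocardial receptor gene, was well above background in 3 WT cells and in no KO cell. By the software's other flag (signal positive and significant), it was also found in 2 KO cells. Its probe (base 6581, chr15:11769937-11769996) had signals of 86.2, 1.24, 60.9 and 18.6 in WT cells and of 3.02, 4.51, 2.47 and 1.98 in KO cells. WT cells 1, 3 and 4 were above every KO cell, while WT cell 2 was below all of them, so that the genotypes overlapped. The level in WT cells was low, and the bound was at least 1.20-fold higher in WT (means of 5.91 and 5.64 on the log2 scale). The SD between cells was 0.26, a small value because every KO cell and WT cells 2 and 4 were raised to the floor. With no floor the same bound was at least 1.67-fold. The difference (KO minus WT) of -0.27 was -0.09 without WT cell 1, whose array was marked for evaluation. It was 0 with the floor set before scaling and -1.65 with a floor of 10. Of the other 5 genes of the natriuretic peptide system, none was 5-fold apart. *Npr2*, a receptor with guanylyl cyclase activity, was detected in all 8 cells with a difference of 0.03 and an SD of 0.65. The peptide genes *Nppa* and *Nppb* were under the floor in every cell, at most 43.8, and *Npr1* and *Nppc* were not detected.

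**Figure D2:**
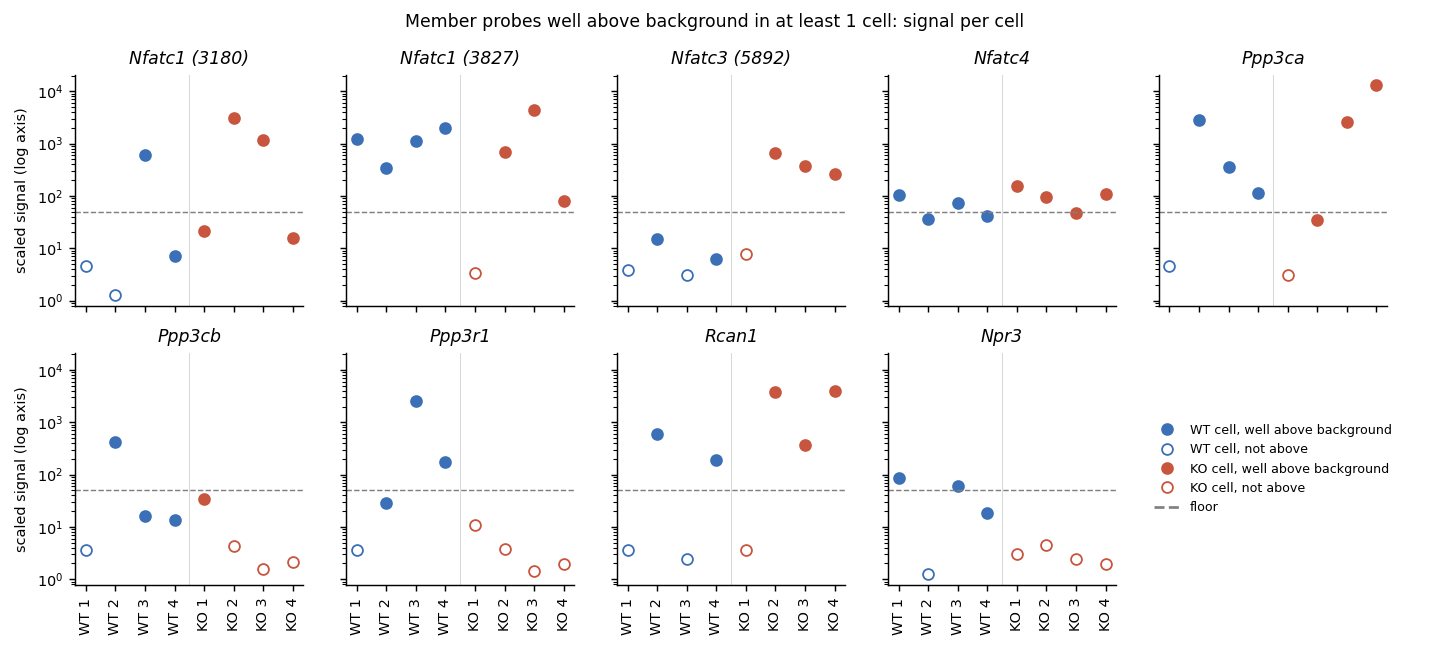
Scaled signal (log axis) of the 9 member probes detected in at least 1 cell, in each of the 4 WT (blue) and 4 KO (red) cells. Filled circles are well above background, open circles are not, and the dashed line is the floor of 50. The KO points of *Rcan1* reach 3941 and 3799.5 but KO cell 1 is at 3.67, and the points of *Nfatc4* stay between 36.1 and 152.

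Over all 13 member probes, 1 was at least 5-fold higher in KO and 0 were at least 5-fold lower, against 1.37% and 1.38% of all 55295 probes. Among the probes detected in at least 1 cell, which are the ones that can differ, the shares over the array were 2.83% and 2.85%, against 1 and 0 of the 9 detected members. No member probe had genotypes that did not overlap, against 0.532% of all probes with KO cells above WT cells and 0.118% with WT cells above KO cells. The median difference was 0 both for the 13 member probes and for all probes.

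**Figure D3:**
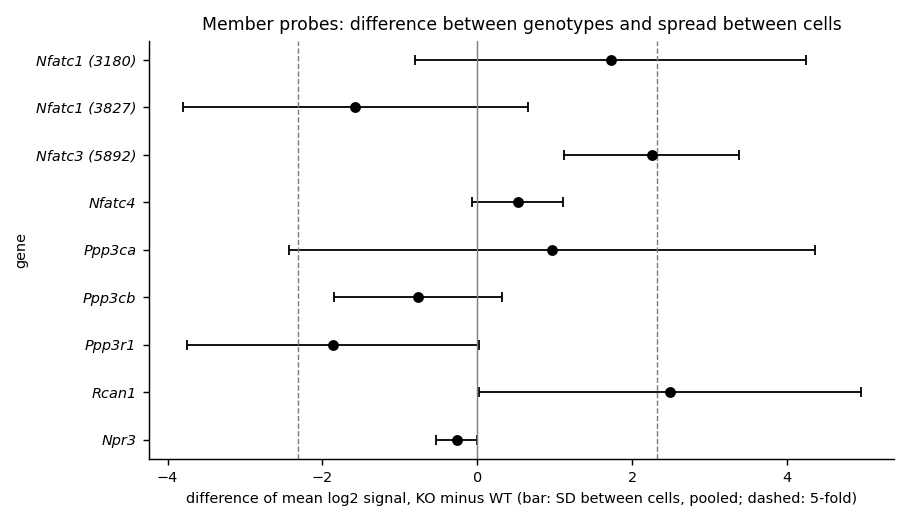
Difference of mean log2 signal (KO minus WT, horizontal axis) for the 9 detected member probes, with bars of 1 SD between cells pooled over genotypes. Dashed lines mark 5-fold in either direction. Bars cross 0 for both *Nfatc1* probes, *Nfatc4*, *Ppp3ca*, *Ppp3cb* and *Ppp3r1*, and only the point of *Rcan1*, at 2.49, is past a dashed line.

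Many member probes varied widely between cells of the same genotype, with *Nfatc4* as an exception (SD 0.59). The SD of *Npr3* was small (0.26) because every KO cell and WT cells 2 and 4 were raised to the floor. Its WT signals before the floor ran from 1.24 to 86.2. Over the 9 detected probes, 38 of 108 comparisons between cells of a genotype (35.2%) were at least 5-fold apart, 16 of 54 within WT and 22 of 54 within KO. Between genotypes the share was 57 of 144 (39.6%). Over all 26833 detected probes the shares were 16.6% within genotypes and 16.8% between them. Differences between a WT and a KO cell were thus about as frequent as between cells of a genotype, for the members and for the array as a whole.

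Around the members, 42 other genes of the pathway were read by their brightest probe. Of these, 34 were detected in at least 1 cell, 3 were at least 5-fold higher in KO, 1 was at least 5-fold lower, and 38 were not 5-fold apart. Over all 35560 named genes and regions the shares were 1.84% higher and 1.86% lower. Of these, 20265 were detected in at least 1 cell and so could differ, and they held the 656 called higher and the 660 called lower. The shares over all genes are therefore too low a measure for a list that was mostly detected. The list's median difference was 0, the same as over all genes, and none of its genes had genotypes that did not overlap, against 0.644% of all genes with KO cells above WT cells and 0.141% with WT cells above KO cells, so that 0 of 42 says nothing about the list.

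The calmodulin genes *Calm2* and *Calm3*, which encode the calcium sensor that activates calcineurin, were detected in all 8 cells. Their differences were 0.85 and -0.78 with SDs between cells of 1.003 and 0.86. The other *Calm3* probe ran the opposite way, with no WT and 3 KO cells detected and log2 means of 5.64 (the floor) and 8.65, so that no direction is given for this gene. For *Calm2*, signals were 10309.9 to 80627 in WT and 26800.3 to 70514 in KO cells, which overlapped.

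Among 7 genes for inhibitors, anchors and immunophilins, 1 was 5-fold apart. *Cabin1*, which encodes a protein that binds and inhibits calcineurin, had signals of 4.15, 163, 429 and 373 in WT cells and of 4128, 31.6, 2466 and 11870.2 in KO cells. KO cells 1, 3 and 4 were above every WT cell, and KO cell 2 was below 3 of them. The difference was 3.05 with an SD of 2.64, and it was under 5-fold without KO cell 4 (2.07). Its other probe was not detected in any cell. The inhibitor gene *Rcan3* differed by 1.48 with an SD of 2.57, and *Rcan2* was not detected. The immunophilin genes *Fkbp1a* and *Ppia*, whose products bind the calcineurin-blocking drugs tacrolimus and cyclosporin, differed by 0.75 (SD 0.47) and 0.74 (SD 0.43), with overlapping cells, and 1 of the 2 other *Fkbp1a* probes ran the opposite way (-0.59).

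Of 8 genes for NFAT kinases, nuclear export and import, 1 was 5-fold apart. *Csnk1d*, which encodes a casein kinase, had signals of 9259, 30.9, 16942 and 4682 in WT cells and of 134, 12.4, 7497 and 407 in KO cells. WT cell 2 and KO cell 2 were the low cells of each genotype, and the difference of -2.70 was smaller than the SD of 3.49. It was under 5-fold without WT cell 1 (-2.07), WT cell 3 (-1.78), KO cell 1 (-2.20) or KO cell 2 (-1.73). *Csnk1a1*, another kinase gene that acts on NFAT, differed by -1.68 with an SD of 2.36 by its brightest probe. Its other probe, detected in 4 WT cells and 1 KO cell, was past 5-fold (-2.45, SD 1.72).

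Of 10 genes for calcium release and entry, *Itpr2*, an inositol trisphosphate receptor gene, was 5-fold higher in KO cells. Its signals were 3.81, 2.08, 2.27 and 1.22 in WT cells and 3.25, 61.1, 33067 and 49.6 in KO cells. It was not detected in any WT cell. With KO cells 1 and 4 also raised to the floor, the mean was at least 5.33-fold higher in KO (2.41 on the log2 scale, SD 3.28). Without KO cell 3 the difference was 0.10. *Itpr1* and *Itpr3* differed by 0.65 (SD 3.21) and -1.10 (SD 3.20). *Stim1*, the calcium sensor of the endoplasmic reticulum, was detected by its brightest probe in WT cell 4 only. The mean was 2.10-fold higher in WT (SD 1.51) with the undetected WT cells also raised to the floor, so that this is no lower bound. The difference was 0 without WT cell 4. Another *Stim1* probe was detected in 2 WT cells and 0 KO cells (-1.06).

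Of 8 genes for AP-1 and MEF2 partners of NFAT, *Jund* was 5-fold higher in KO cells. Its signals were 7.47, 3.07, 2.96 and 19.1 in WT cells and 3.24, 3761, 1.82 and 1520.0 in KO cells. KO cells 2 and 4 were high, and KO cells 1 and 3 were as low as the WT cells. The difference was 2.79 with an SD of 2.31, and it was under 5-fold without KO cell 2 (1.64) or KO cell 4 (2.08). *Jun* was detected in 2 WT cells and no KO cell. With WT cells 1 and 2 also raised to the floor, its mean was 1.95-fold higher in WT (SD 1.15). Without WT cell 3 the log2 difference was -0.16. *Fos* was not detected, and *Mef2a* was detected in all 8 cells with a difference of 0.13 and an SD of 1.36 (-0.08 for its other detected probe). The 4 genes of scaffolds and NFAT regulators had none 5-fold apart, and *Nron*, a noncoding RNA that holds NFAT in the cytoplasm, was detected in all 8 cells with a difference of 0.31 and an SD of 0.56.

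**Figure D4:**
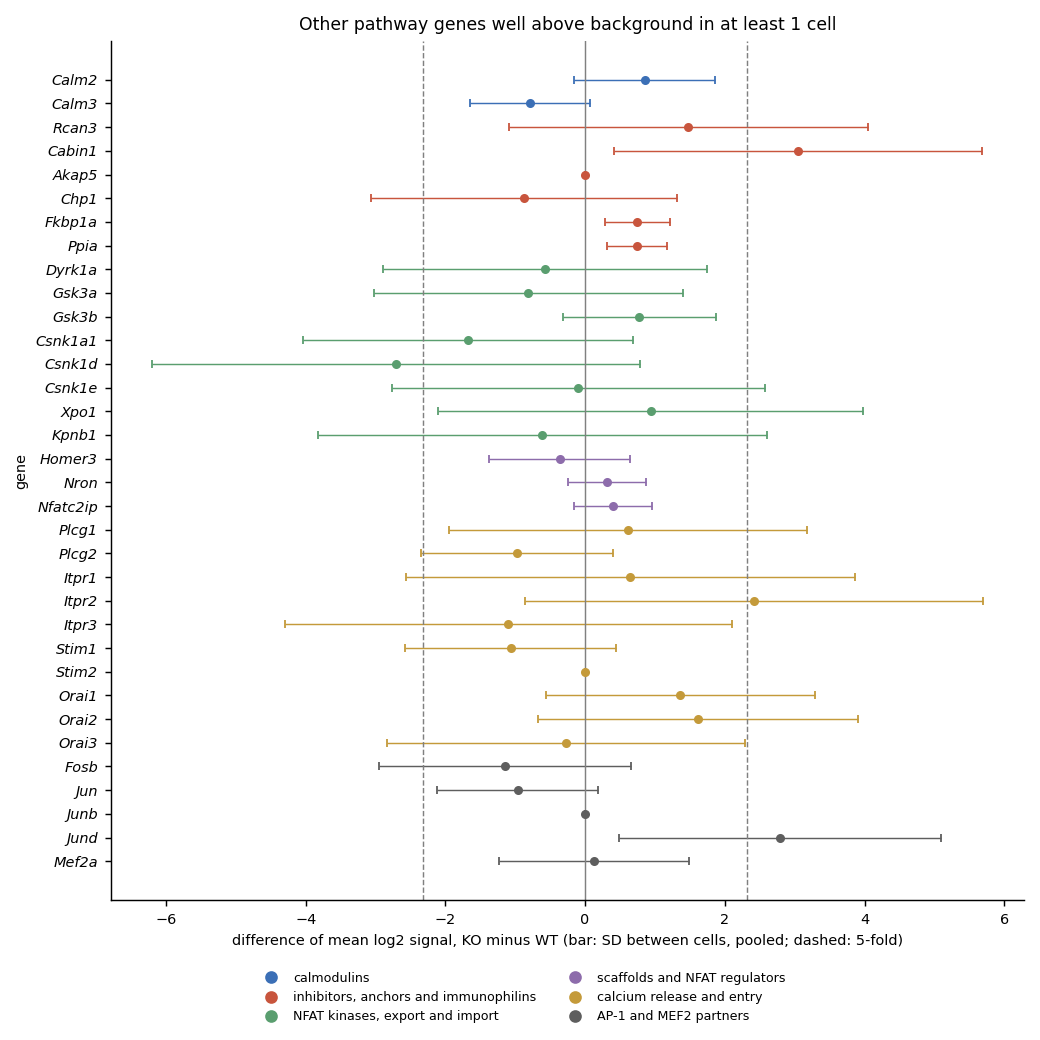
Difference of mean log2 signal (KO minus WT) for the 34 other pathway genes detected in at least 1 cell, coloured by role, with bars of 1 SD between cells pooled over genotypes and dashed lines at 5-fold. *Cabin1*, *Jund* and *Itpr2* lie past the line on the right and *Csnk1d* past the line on the left, and the bars of *Itpr2* and *Csnk1d* cross 0.

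The genes whose pattern over the 8 cells was most like that of the brighter *Nfatc1* probe were taken from 7276 genes and regions above the floor in at least 4 cells. *Csnk1a1* had the highest Pearson r (0.95), followed by *Ostc* (0.93), a probe with no gene name (0.91), *Tek* (0.90), which encodes the angiopoietin receptor, and *Akirin1* (0.90). Each of them stood at the floor for KO cells 1 and 4, and over it for all WT cells and KO cells 2 and 3, while *Nfatc1* itself was at the floor in KO cell 1 only. For *Npr3* the most alike were *Krt79* (0.996), a pair of noncoding regions named by position (0.99 and 0.98), *Usp42* (0.98) and a probe with no gene name (0.97). In each of these WT cell 1 was highest and WT cell 3 second, the order of *Npr3*. Only in these 2 cells was *Npr3* above the floor, so that its r values rest on them, and the array of WT cell 1 was marked for evaluation. With 8 cells the best r values over so many genes are high by selection, and the 99th percentile was 0.73 for *Nfatc1* and 0.88 for *Npr3*.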

How the data were processed

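Single-cell cDNA had been amplified from poly(A) tails, transcribed from a T3 promoter and hybridized to Agilent array design 028005. The authors deposited the intensity of each spot from Feature Extraction 12.0.2.2, background-subtracted and detrended but not normalized between arrays, with flags for outliers and detection. Members and lists were chosen with earlier results of these data known.

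Control and outlier spots were dropped and replicate spots averaged, which left 55295 of 55681 probes, those measured by such spots on each of the 8 arrays. None was saturated. Arrays were brought to the same 50th percentile over the 7570 probes detected on all of them, a floor of 50 was applied, and signals were expressed as log2. A probe was detected when over 50% of its usable spots were well above background. Members were matched by the name in the files, and 1 gene of the pathway list is not reported here. Other probes were named through their accession in RefSeq (28131 probes, GRCm38.p6, names only). A gene is given by its brightest probe, chosen by the mean over all cells, and 5-fold was the size counted. Named genes were the members, *Sox17*, the list genes at least 5-fold apart (at most 10) and the 5 genes most like *Nfatc1* and *Npr3*. Other list genes are named as examples of their role, and the markers *Emcn* and *Actc1* for their size, all chosen after their values were seen. Probe positions are mm9, without exon annotation. The alternatives were other percentiles, floors, normalizations, background correction (normexp, offset 50), probe choices and detection calls, a 2-fold size, and leaving out each cell. The number of arrays limits the precision. The steps were tested on simulated arrays. Python 3.11.15, numpy 2.4.6, pandas 2.3.3, scipy 1.17.1, matplotlib 3.10.9, R 4.3.3 and limma 3.58.1 were used.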

Additional observations from a re-analysis of the deposited data

Results flagged for a closer look

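In 2 of 14 groups of 4 cells that had any spread, 1 cell stood so far from the others that its gap took up the group's whole range (a ratio of 1). These were WT cell 3 for the *Nfatc1* probe at base 3180, with a log2 signal of 9.26, and WT cell 2 for *Ppp3cb*, with 8.72. In both groups the other 3 cells stood at the floor, which fixes a ratio of 1. A rate of about 1 in 20 groups, or 0.7 of 14, does not hold for values raised to a floor, so that the 2 groups cannot be set against it.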

How the results depend on the processing

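No paired analysis was possible because no test was made and cell numbers only name the cells. Over 169 values of single members under the alternatives, 156 moved by less than the SD between cells, 161 kept their sign, and 13 moved further, for *Nfatc2*, *Nfatc3*, *Npr3*, *Ppp3cb* and *Ppp3r1*. Of the 161, 15 were values of 0 for the undetected *Nfatc2*, which had no sign to keep. The mean over all probes of a gene cannot move a gene with 1 probe. *Rcan1* was higher in KO cells under all 17 of its alternatives (1.67 to 3.77). The count of member probes at least 5-fold higher in KO cells (1) was 0 with the 75th percentile, with all probes for the percentile, with the floor set before scaling, with normexp, with a floor of 200 and with only probes detected on all arrays; it was 2 with quantile normalization, 3 with a floor of 10, with no floor and at 2-fold, and 0 to 3 without single cells. Without KO cell 4 or without WT cell 3 the 1 probe counted was that of *Nfatc1* at base 3180, not *Rcan1*. The count lower (0) was 1 with a floor of 10, 4 with no floor, 2 at 2-fold, and 0 to 1 without single cells. Pathway genes at least 5-fold higher (3) were 1 with a floor of 200, 5 with no floor and 1 to 4 without single cells, and those lower (1) were 0 with normexp, 3 with no floor and 0 to 3 without single cells. The share of comparisons within a genotype at least 5-fold apart was 21.3% with a floor of 200. The setting with no floor was chosen after seeing the data, and it and normexp moved the median of all probes by 0.37 and 0.22. The causes of these changes were not tested, except that a floor sets the smallest value a dim probe can take.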
